A study of Homo sapiens with 4 samples.

Results

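Several names in miRNA tables belong to sequences that also lie inside longer, abundant non-coding RNAs. The names described here are miR-1246, of the U2 small nuclear RNA (snRNA); miR-1248, miR-1291, miR-3607 and miR-664 (now miR-664a), of small nucleolar RNAs (snoRNAs); miR-1260a, miR-1260b and miR-4454, grouped with transfer RNAs (tRNAs); and miR-4461, for which no source RNA was assigned. They were chosen by name, all strands included, and gave 11 of the 1345 rows of the table. miR-1290, the other U2-like name, had no row and so was not analysed here.

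Mature miRNAs were counted by small-RNA sequencing in the human colorectal carcinoma line HCT116, engineered so that doxycycline switches on a short hairpin RNA (shRNA) to SAE2, the catalytic subunit of the enzyme that activates SUMO. The 2 plus libraries were labelled sh-plus and sh2-plus, and the 2 minus libraries sh1-minus and sh2-minus, read here as with and without doxycycline. Each line therefore gave 1 library per condition, with replicate 1 the sh1 line (for plus by elimination) and replicate 2 the sh2 line. Both lines are HCT116 with an inducible shRNA, the protocol of 3 days of doxycycline is given for every library, and no library of doxycycline-treated cells without the shRNA was analysed here, so the effects of doxycycline and of the knockdown cannot be told apart.

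As background, a canonical miRNA is cut from a hairpin by Drosha and Dicer and then guides Argonaute to messenger RNAs through its seed, the bases from position 2 to 8. U2 snRNA is the part of the spliceosome that pairs with the branch point of an intron. H/ACA snoRNAs guide the conversion of uridine to pseudouridine in ribosomal and spliceosomal RNA, and C/D snoRNAs guide ribose methylation. Short pieces of these RNAs and of tRNAs are found in small-RNA libraries, and some H/ACA pieces are cut by Dicer and bound by Argonaute. A read that fits both the mature name and the longer RNA does not tell which of them it came from.

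The mature sequences are shown because they link the names to the longer RNAs; RefSeq (GRCh38.p14) held 8 of the 11, and the capitals mark the seed. miR-3607-3p, miR-3607-5p and miR-4461 are named only.
miR-1246: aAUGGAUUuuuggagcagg
miR-1248: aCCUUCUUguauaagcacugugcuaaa
miR-1291: uGGCCCUGacugaagaccagcagu
miR-664-3p: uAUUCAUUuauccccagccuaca
miR-664-5p: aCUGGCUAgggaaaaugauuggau
miR-1260a: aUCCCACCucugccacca
miR-1260b: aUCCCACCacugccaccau
miR-4454: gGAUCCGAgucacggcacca
The only seed shared among these 8 was that of miR-1260a and miR-1260b. Counted from 1 at the 5′ end, these differ by U9A (the base of miR-1260a first), and miR-1260b has 1 further base at its 3′ end. Mature tRNAs end in CCA, and so did 2 of the 8 sequences, miR-1260a and miR-4454. Of the 1081 rows of the table with a RefSeq mature sequence, these 2 included, 2.22% did. Both names were chosen as tRNA names, so this is a description only.

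The genes lie apart. On GRCh38.p14, mature miR-1246 is at chr2:176601024-176601042 on the minus strand, in no other annotated gene. miR-1248 is at chr3:186786675-186786701 on the plus strand, where its hairpin overlaps SNORA81 and an exon of at least 1 transcript of EIF4A2, a translation initiation factor. miR-1291 is at chr12:48654494-48654517 on the minus strand, its hairpin overlapping SNORA2C and lying in an intron of KANSL2, a subunit of a chromatin acetylation complex, in the same direction. miR-664-3p and miR-664-5p are at chr1:220200549-220200571 and chr1:220200586-220200609 on the minus strand, in SNORA36B and an intron of RAB3GAP2, a regulator of Rab GTPases. The hairpins of miR-1260a (mature chr14:77266231-77266248, plus strand) and miR-1260b (mature chr11:96341447-96341465, plus strand) overlap exons of NGB and MAML2 on the opposite strand. miR-4454 is at chr4:163093607-163093626 on the minus strand, in no other annotated gene.

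Of the 8 sequences, 5 lie letter for letter within an annotated snRNA or snoRNA. The whole of miR-1246 was found in 19 snRNA transcripts of GENCODE 29, of which 7 carry an RNU2 name, so the same 19 bases stand at many places of the genome. The hairpin assigned to miR-1246, 73 bases long, shares no longer run with RNU2-1 than the 19 bases of the mature name. Nuclear tRNAs were not in the annotation used, so the tRNA names were not matched in this way. The 4 longer RNAs follow 5′ to 3′, as DNA letters, with the stretches that carry a miRNA name in capitals.
RNU2-1 (U2 snRNA, GRCh38 chr17:43233787-43233977, minus strand): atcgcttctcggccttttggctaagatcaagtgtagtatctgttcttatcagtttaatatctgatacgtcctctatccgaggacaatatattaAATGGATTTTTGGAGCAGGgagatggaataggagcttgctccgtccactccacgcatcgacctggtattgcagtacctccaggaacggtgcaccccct
SNORA81 (GRCh38 chr3:186786675-186786852, plus strand): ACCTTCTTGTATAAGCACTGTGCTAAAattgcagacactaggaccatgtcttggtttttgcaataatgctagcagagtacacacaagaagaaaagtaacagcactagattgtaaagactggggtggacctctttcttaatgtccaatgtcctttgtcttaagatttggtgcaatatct
SNORA2C (GRCh38 chr12:48654382-48654518, minus strand): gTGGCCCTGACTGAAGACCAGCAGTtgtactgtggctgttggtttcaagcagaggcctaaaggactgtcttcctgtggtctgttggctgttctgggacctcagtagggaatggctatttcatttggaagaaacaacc
SNORA36B (GRCh38 chr1:220200546-220200676, minus strand): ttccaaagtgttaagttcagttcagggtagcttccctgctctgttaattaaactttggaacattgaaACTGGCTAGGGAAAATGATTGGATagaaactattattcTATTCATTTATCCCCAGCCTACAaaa
miR-1248 is the first 27 bases of SNORA81, and miR-1291 covers positions 2 to 25 of SNORA2C. The strands of miR-664 lie in the 3′ part of SNORA36B, at positions 68 to 91 (5p) and 106 to 128 (3p), the last ending 3 bases before the end of the snoRNA. miR-1246 lies inside U2, at positions 94 to 112 of 191.

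**Figure D1:**
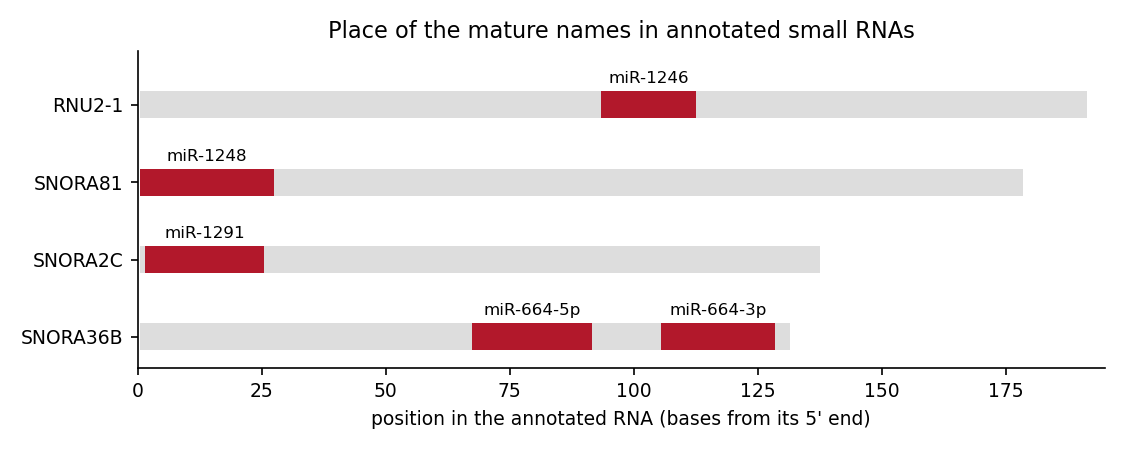
Position of each mature name (red) in the annotated RNA that holds it in full (grey), in bases from the 5′ end of that RNA. miR-1248 and miR-1291 lie at the 5′ end, miR-664-5p and miR-664-3p in the 3′ part of SNORA36B, and miR-1246 at positions 94 to 112 of RNU2-1.

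The deposited values are normalised read counts, summing to between 9700472 and 10519207 per library, with 1 read worth about 0.945 to 1.028 by library. The 3 reads taken as the floor of detection thus correspond to about 2.83 to 3.08 normalised counts. This floor and the intervals given here cover counting error only. As a check of the label, the 5 colon epithelial markers summed to between 153723 and 160213 in the plus libraries and between 139165 and 140645 in the minus libraries, most of it miR-200c-3p. In the limma fit described next, 3 of these 5 were called higher in plus, miR-192-5p (log2 change 0.78, adjusted p = 9.78e-09), miR-194-5p (0.72, adjusted p = 4.74e-08) and miR-215 (0.71, adjusted p = 0.00809), and miR-200c-3p (0.13) and miR-141-3p (0.17) did not pass; their part in the results was not tested. Of 9 markers of blood, muscle, liver and neurons, 8 had a row, summing to between 230.3 and 253.3 in the plus and between 228.5 and 238.9 in the minus libraries. Among these 8, miR-451a of red cells was at 108 and 115 in the plus and 103 and 115 in the minus libraries. miR-122-5p of liver was at 46.3 and 58.2 in plus and 48.4 and 48.2 in minus, and miR-142-3p of blood at 30.9 and 36.8 against 60.45 and 38.7. miR-124-3p of neurons was at 31.8 and 22.5 in plus and 13.1 in both minus libraries, and did not pass (log2 change 0.97, limma adjusted p = 0.0514). At the low end, miR-133a of muscle was at 0 in both minus libraries and miR-144-3p of red cells in 1 library of each condition.

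The comparison, plus over minus, asks which names changed with induction of the shRNA. It was made with limma on log2(value + 1) over the 709 rows whose mean was 10 or more, with Benjamini-Hochberg adjustment over all of them and a threshold of 0.05. Of the 11 names, 10 reached that level. miR-1246, miR-1248, miR-664-3p and miR-4461 rose, none fell, and 6 did not pass. At an unadjusted p under 0.05 limma gave 5 of the 10 names higher and 0 lower, against 124 and 145 of all 709 rows. At the adjusted threshold 28.5% of all 709 were called, 13.4% as higher and 15.1% as lower in plus. That is 95 higher and 107 lower, a split that became 121 and 83 under median-ratio scaling. The median log2 change was 0.42 over the 10 names and −0.031 over all 709. With 2 libraries per condition an exact two-sided permutation test of 1 name cannot give a p below 0.333, so each call rests on the spread pooled over miRNAs. All 4 calls were lost without plus replicate 1, without plus replicate 2, without a level filter and without a mean-variance trend, and that of miR-1248 also without either minus library. In such bulk libraries a change in the number of cells that hold an RNA and a change in RNA per cell cannot be told apart.

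**Figure D2:**
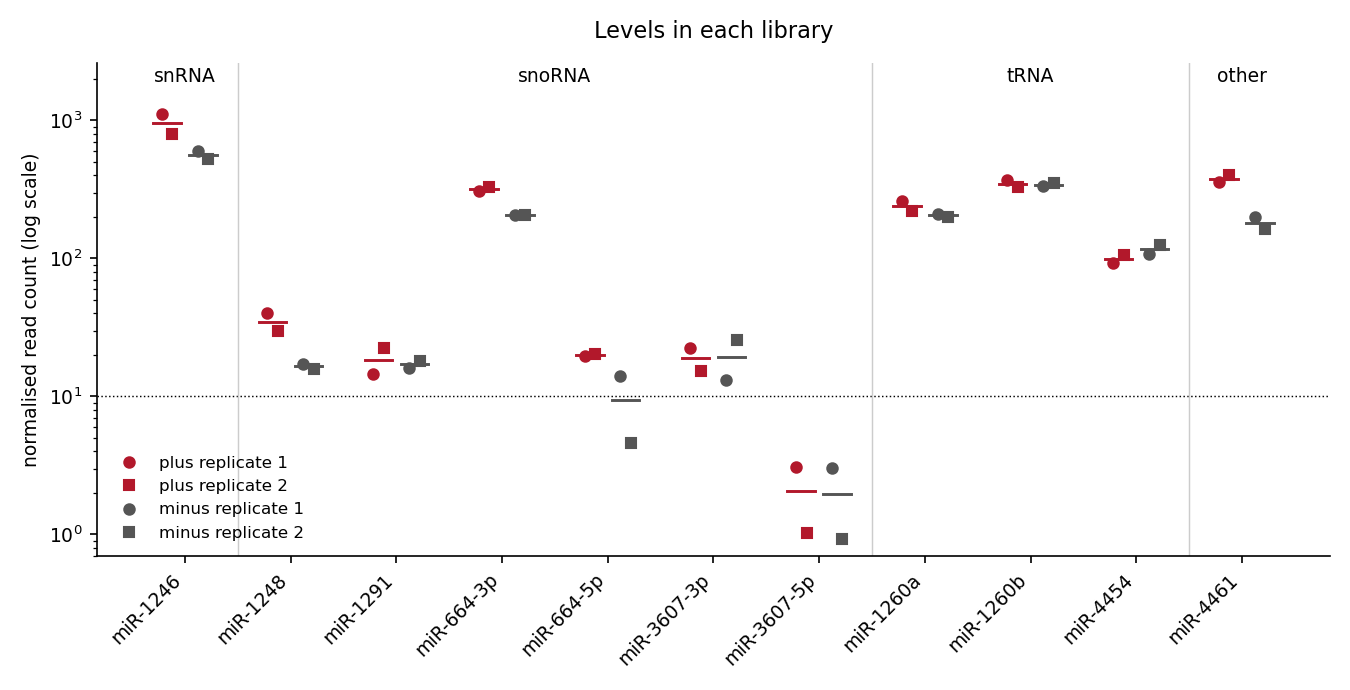
Normalised read count (log axis) of the 11 names in each library, grouped by the class of RNA each name was assigned to, with circles for replicate 1, squares for replicate 2 and bars for the mean of a condition; the dotted line is the level of 10 used for the test. The plus libraries (red) lie above both minus libraries (grey) for miR-1246, miR-1248, miR-664-3p, miR-664-5p, miR-1260a and miR-4461.

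The U2 snRNA name had the largest share of any single name, though the tRNA names together had more in both minus libraries. miR-1246 had 1116 and 799 normalised counts in plus replicates 1 and 2, against 600 and 527 in minus replicates 1 and 2. Both plus libraries lay above both minus libraries, and the plus libraries differed from each other more than the minus libraries did. The means were 958 ± 224 in plus and 563 ± 51.5 in minus (SD, n = 2 each). The log2 change was 0.75 ± 0.13 (SE; limma adjusted p = 1.80e-05). Leaving out plus replicate 1 gave 0.51 and leaving out plus replicate 2 gave 0.99, with adjusted p-values of 0.106 and 0.0518, against a range of 3.38e-09 to 0.140 over its 14 alternatives. The mature sequence of miR-1246 is the stretch in capitals in RNU2-1 above. The reads themselves were not examined, and how reads that fit several places were assigned is not given in the sources used here.

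Of the snoRNA names, 6 rows in all, 2 rose. miR-1248, the 5′ end of SNORA81, had 40.0 and 29.6 normalised counts in plus replicates 1 and 2, against 17.1 and 15.9 in minus replicates 1 and 2. The conditions did not overlap. The log2 change was 1.01 ± 0.35 (SE; limma adjusted p = 0.0237). It rests on about 68 reads in plus and 34 in minus, a ratio of 2.10 with a 95% exact binomial counting interval of 1.37 to 3.27. The call was also lost under quantile normalization, at a log2 change of 1.04 and an adjusted p of 0.0676, and in the fits without minus replicate 1 (adjusted p = 0.0845) and without minus replicate 2 (adjusted p = 0.118), and over its 13 alternatives the adjusted p ranged from 0.0121 to 0.195.

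miR-664-3p, the 3′ strand in SNORA36B, had 307 and 328 normalised counts in plus replicates 1 and 2, against 207.7 and 207.7 in minus replicates 1 and 2. Libraries of a condition lay close together, and the conditions did not overlap. The log2 change was 0.61 ± 0.15 (SE; limma adjusted p = 0.00190). It ranged from 0.56 to 0.66 with 1 library left out, the narrowest range among the 10 names; without plus replicate 1 and without plus replicate 2 the adjusted p was 0.0788 and 0.0731, and over its 14 alternatives it ranged from 0.000206 to 0.0799.

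Its partner miR-664-5p, whose sequence lies in the same snoRNA, had 19.5 and 20.4 normalised counts in plus replicates 1 and 2, against 14.1 and 4.58 in minus replicates 1 and 2. Both plus libraries lay above both minus libraries, which were far apart from each other. The log2 change of 1.19 (standard error 0.47) did not pass (limma adjusted p = 0.0516), on about 39 reads in plus and 19 in minus. It passed with the replicate number as a block (adjusted p = 0.0498), under median-ratio scaling (0.0271) and with minus replicate 1 left out (0.0108), with a range of 0.0108 to 0.565 over its 13 alternatives. Leaving out minus replicate 1 gave a log2 change of 1.91, and leaving out minus replicate 2 gave 0.47.

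The ratio of the 3p to the 5p strand of miR-664, in estimated reads, was 15.7 and 16.1 in plus replicates 1 and 2, against 14.7 and 44.0 in minus replicates 1 and 2. Thus 3 of the 4 libraries had nearly the same ratio, and minus replicate 2, with 5 reads of the 5p strand, stood higher. Its 95% exact binomial interval of 18.6 to 137 overlapped those of the others, which ran from 8.57 at the lowest to 27.4 at the highest. Such overlap does not show that the ratios are alike, and their difference was not tested.

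The other snoRNA names did not pass. miR-1291, near the 5′ end of SNORA2C, had 14.4 and 22.4 normalised counts in plus replicates 1 and 2, against 16.1 and 17.9 in minus replicates 1 and 2. The plus libraries enclosed the minus libraries. Its log2 change was 0.08 ± 0.40 (SE; limma adjusted p = 0.902). The sequences of miR-1248 and miR-1291 both lie at or near the 5′ end of an H/ACA snoRNA, with log2 changes of 1.01 and 0.08, a difference that was not tested.

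miR-3607-3p, which lies in a C/D snoRNA, had 22.6 and 15.3 normalised counts in plus replicates 1 and 2, against 13.1 and 25.6 in minus replicates 1 and 2. Here the minus libraries enclosed the plus libraries, with a log2 change of 0.019 ± 0.40 (SE; limma adjusted p = 0.974). miR-3607-5p stood at the floor, with about 3 and 1 reads in plus replicates 1 and 2 and the same in minus replicates 1 and 2, and was not tested. No difference in it was detectable at this depth, with a ratio of 1.05 and a 95% counting interval of 0.196 to 5.64.

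None of the 3 tRNA names passed. miR-1260a had 260 and 221 normalised counts in plus replicates 1 and 2, against 212 and 198 in minus replicates 1 and 2. The conditions did not overlap, but the log2 change was 0.22 ± 0.16 (SE; limma adjusted p = 0.319). miR-1260b, a base different in its common stretch, had 368 and 330.0 normalised counts in plus replicates 1 and 2, against 333 and 351 in minus replicates 1 and 2. Its conditions overlapped, with a log2 change of 0.027 ± 0.14 (SE; limma adjusted p = 0.903). miR-4454 had 92.6 and 106 normalised counts in plus replicates 1 and 2, against 108 and 125 in minus replicates 1 and 2. It was the only one of the 10 names with both plus libraries below both minus libraries, at a log2 change of −0.22 ± 0.20 (SE; limma adjusted p = 0.422).

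miR-4461 had 358 and 401 normalised counts in plus replicates 1 and 2, against 199.6 and 162 in minus replicates 1 and 2. The conditions were well apart. The means were 379.5 ± 30.9 in plus and 181 ± 26.4 in minus (SD, n = 2 each), a 2.10-fold difference, with a log2 change of 1.07 ± 0.16 (SE; limma adjusted p = 6.16e-07). By size of rise it stood at place 18 of the 709 tested rows, with miR-1248 at 21, miR-1246 at 42 and miR-664-3p at 63. Without plus replicate 1 and without plus replicate 2 its adjusted p was 0.0746 and 0.0599, and over its 14 alternatives it ranged from 3.06e-11 to 0.0774.

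**Figure D3:**
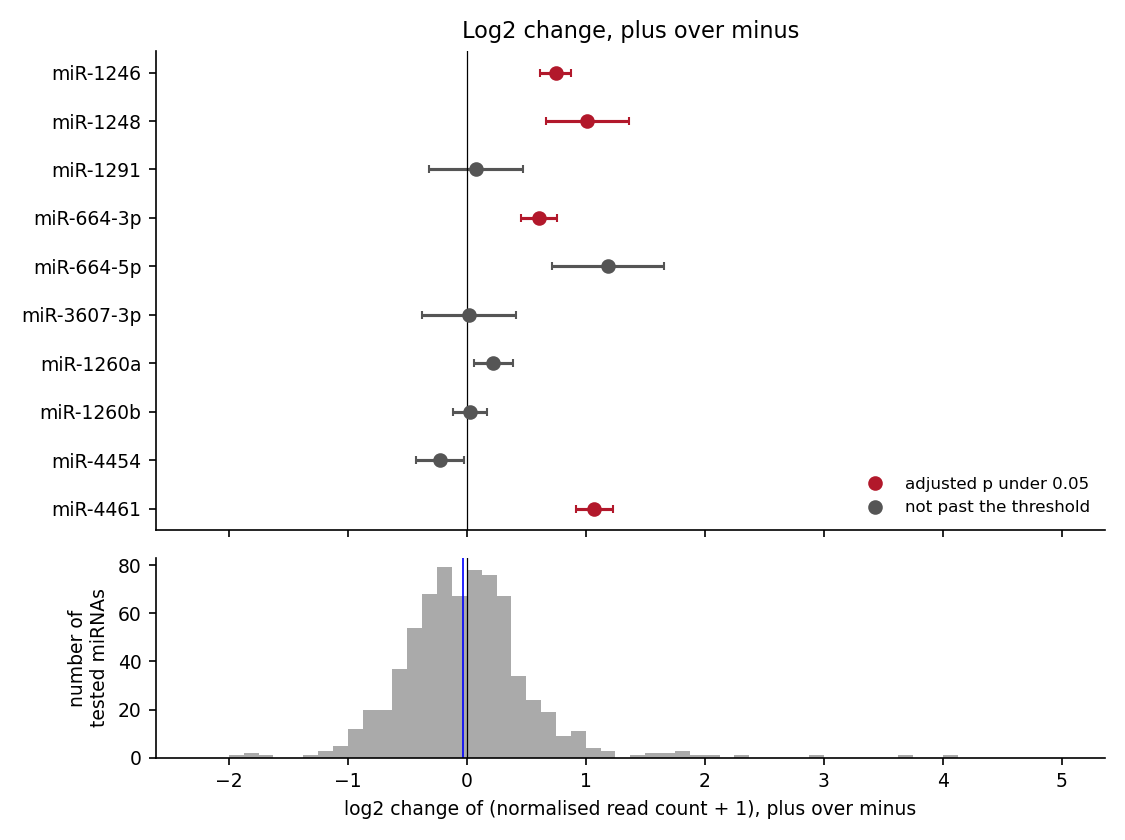
Top, log2 change of the 10 tested names, plus over minus, with bars of 1 standard error; red marks an adjusted p under 0.05. Bottom, the number of all 709 tested miRNAs by log2 change, with their median of −0.031 in blue; miR-4461, miR-1248, miR-1246 and miR-664-3p lie at 1.07, 1.01, 0.75 and 0.61.

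For 6 of the 10 tested names both plus libraries lay above both minus libraries. This by itself makes them higher in plus in each line, so the direction in the lines adds nothing further. Among all 709 rows 29.1% had both plus libraries above both minus libraries and 33.9% had both below. Each line has 1 library per condition, so the following are values with no test. The log2 change of miR-1246 was 0.90 in line sh1 and 0.60 in line sh2, with 95% counting intervals of 0.75 to 1.04 and 0.44 to 0.76. That of miR-4461 was 0.84 in line sh1 and 1.30 in line sh2, with intervals of 0.59 to 1.10 and 1.04 to 1.57. Thus miR-1246 moved more in sh1 and miR-4461 more in sh2. The intervals of the lines overlap for both, for miR-1246 only from 0.75 to 0.76. Such overlap does not show that the lines moved alike, which was not tested. miR-664-3p had 0.56 in line sh1 and 0.66 in line sh2, and miR-1248 had 1.18 and 0.85. The interval of miR-1248 in line sh2 ran from −0.029 to 1.84 and so included no change.

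**Figure D4:**
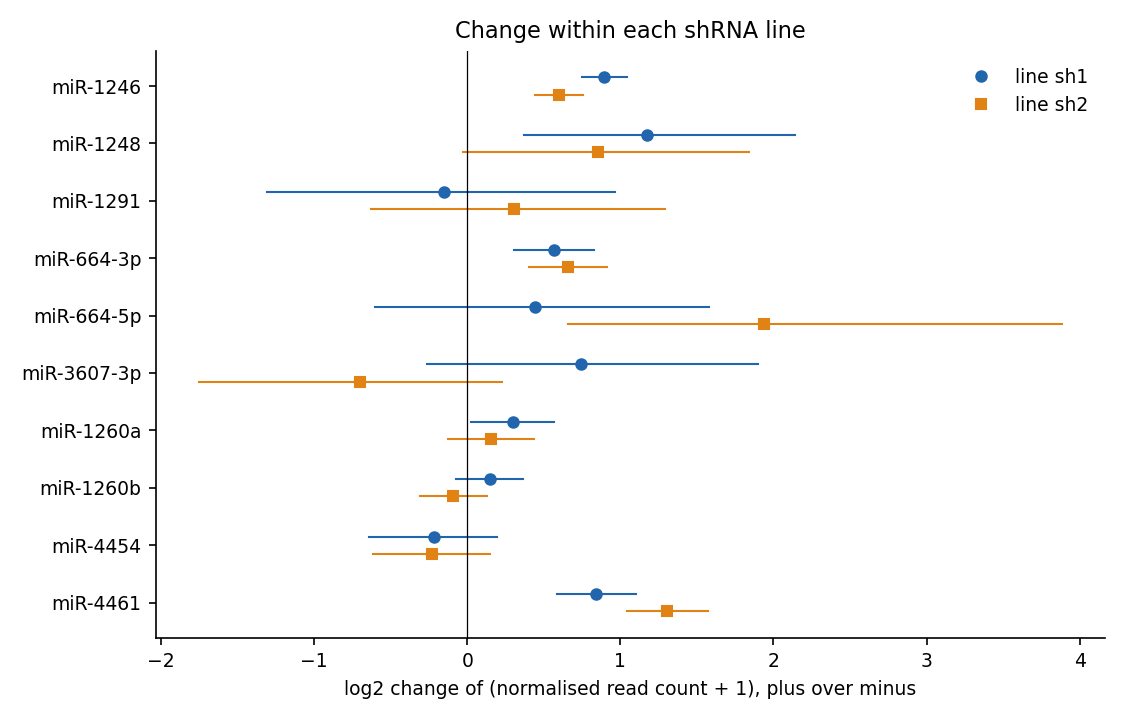
Log2 change, plus over minus, within line sh1 (blue circles) and line sh2 (orange squares), with 95% counting intervals of the read ratio as horizontal lines. miR-1246, miR-664-3p and miR-4461 lie to the right of 0 with their intervals in both lines, and miR-3607-3p lies at 0.74 in sh1 and −0.70 in sh2.

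Summed together, the 11 names took 265 and 216 ppm (parts per 1000000 of the library total) in plus replicates 1 and 2, against 175 and 169 in minus replicates 1 and 2. The conditions did not overlap. miR-1246 alone took 114 and 75.9 ppm in plus replicates 1 and 2, against 60.9 and 54.3 in minus replicates 1 and 2, and most of the gap between the plus libraries was in this name. The snoRNA names took 40.5 ± 1.25 ppm in plus and 27.8 ± 0.406 in minus (SD, n = 2 each). The tRNA names took 67.9 ± 7.66 in plus and 67.9 ± 2.34 in minus (SD, n = 2 each). The tRNA share thus differed by less than its spread between replicates, and the snoRNA share, most of it miR-664-3p, by more.

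**Figure D5:**
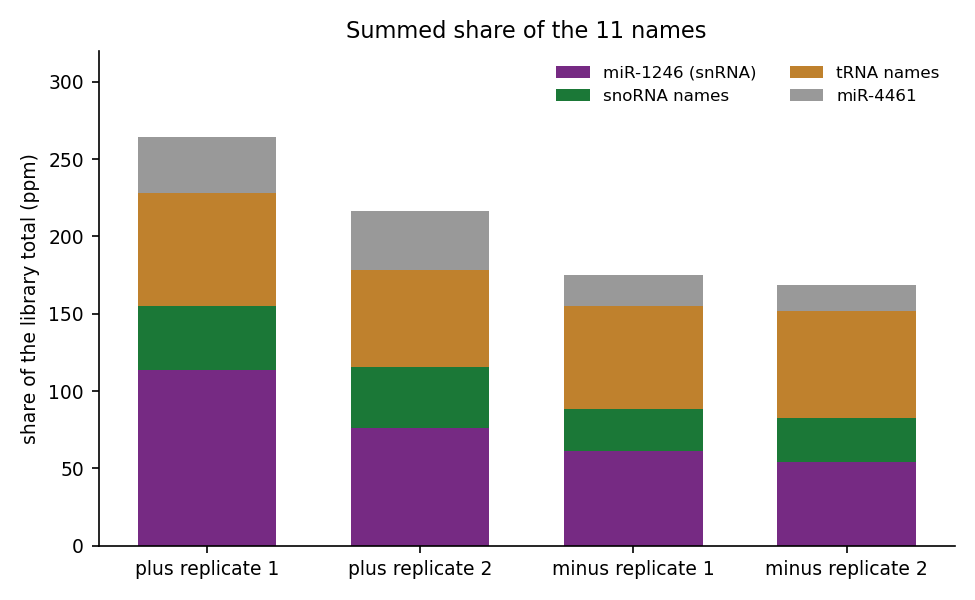
Share of each library's total taken by the 11 names, in ppm, stacked by the class of RNA each name was grouped with. The stack reaches 265 and 216 in plus replicates 1 and 2, against 175 and 169 in minus replicates 1 and 2, while the tRNA layer averages 67.9 in both conditions.

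Of 22 other names that lie in or resemble stable RNAs, 12 rows were in the table and 6 reached the level for the test, of which 1 rose, 1 fell and 4 did not pass, with a median log2 change of −0.13, against the 13.4% higher and 15.1% lower among all 709 rows. The riser was miR-4485, which lies in full in the mitochondrial 16S ribosomal RNA (MT-RNR2), at 213 and 148 normalised counts in plus replicates 1 and 2, against 97.8 and 84.8 in minus replicates 1 and 2 (log2 change 0.95, limma adjusted p = 0.000202). Its call was lost without plus replicate 1 (adjusted p = 0.113), without plus replicate 2 (0.0518), under quantile normalization (0.0506), with no level filter (0.123) and with no trend (0.0842). The one that fell was miR-720, a name withdrawn from miRNA lists as a tRNA piece, at 1432 and 1425 in plus replicates 1 and 2, against 1852 and 2021 in minus replicates 1 and 2 (log2 change −0.44, limma adjusted p = 0.00106). That call was lost without plus replicate 1 (adjusted p = 0.0958), without plus replicate 2 (0.0731), without minus replicate 2 (0.0573), with no level filter (0.0886) and with no trend (0.101).

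A search of all 1081 rows with a RefSeq mature sequence found 9 that lie in full in an annotated stable RNA, 7 of them tested. Beside 5 of the names above, these were miR-4485 and miR-4284, the last within the mitochondrial tRNA for phenylalanine (MT-TF). miR-4284 rose as well, at 371 and 172 normalised counts in plus replicates 1 and 2, against 78.7 and 77.2 in minus replicates 1 and 2 (log2 change 1.68, limma adjusted p = 4.48e-08). Leaving out plus replicate 1 gave a log2 change of 1.13, and leaving out plus replicate 2 gave 2.24. The call was lost without plus replicate 1 (adjusted p = 0.0746), under quantile normalization (0.0555), with no level filter (0.128) and with no trend (0.0842). This search was made with the values known and is a description.

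Profiles over the 4 libraries were compared by the root mean square difference of log2(value + 1) after centring each row. Among the 10 names there were 2 pairs in which each was the other's nearest, miR-1260a and miR-1260b at 0.119 and miR-1246 and miR-1248 at 0.139. Of the 699 other tested rows, 88 and 111 were nearer still to miR-1260a and miR-1260b, and 6 and 5 to miR-1246 and miR-1248. The row outside the set nearest to miR-1246 was miR-22-3p at 0.080, that nearest to miR-4461 was miR-4697-3p at 0.048, and that nearest to miR-664-3p was miR-28-3p at 0.014. Of the 699 rows outside the set, 16 were nearer to miR-4461 and 124 nearer to miR-664-3p than any of the 10 names.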

How the data were processed

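Mature miRNAs were counted in 4 small-RNA libraries. The deposited values are a signal per miRNA. They were taken to be read counts scaled by roughly the same factor within a library. This was inferred from the low values, which cluster near multiples of a fixed step in each library. The factor was not exact: in minus replicate 2, at a step of 0.945, miR-4463 was at 0.9 and miR-3607-5p at 0.92. Estimated reads are therefore approximate. Values under 60 were within 0.1 of a multiple in 85.1% to 100% of cases, depending on the library, so no count model was run. Reads were trimmed with cutadapt per the labels. The submitters' processing notes list TopHat2 2.0.8b and edgeR, and the builds hg19 and GRCh37, with no role given. The miRNA annotation, the counter and its handling of reads that fit several places were not stated there. Columns were matched to samples by library number and index, since 2 columns write sh4 where the titles write sh2.

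Rows were tested on log2(value + 1) by limma (3.58.1, R 4.3.3), two-sided and with a mean-variance trend, over those with a mean of at least 10; a fold change on this scale understates that of low names. The residual degrees of freedom were 2 and the prior degrees of freedom 43.0. The fit was tested on simulated counts with a common setting of the spread for all rows and no difference between lines. That run does not check the pooling of the spread in the measured libraries. Estimated reads are values divided by the worth of 1 read, and read ratios were scaled by that worth. Library and line coincide within a condition, so the spread between libraries is also that between 2 lines. With 43.0 prior against 2 residual degrees of freedom, the p-values rest mostly on this spread pooled over miRNAs. The replicate number stands for the line, for plus replicate 1 by elimination; the correlation of same-numbered deviations from the condition means was 0.056. Sequences came from RefSeq (GRCh38.p14), miR-664 read as miR-664a and miR-4485 as miR-4485-3p, and longer RNAs from GENCODE 29 (GRCh38); the table itself holds no coordinates. Every row found by name is reported. The 22 other stable-RNA names were listed by name, and the nearest rows by root mean square difference. The names and lists were chosen with earlier results of these data known. The alternatives were 3 other scalings, 2 level filters, 2 pseudocounts, no trend, a replicate block, identical rows collapsed and leaving out each library.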

Additional observations from a re-analysis of the deposited data

Results flagged for a closer look

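For 3 names the lines moved in opposite directions, with 1 library per line and condition, so the difference between the lines was not tested. The log2 change, plus over minus, was 0.74 in line sh1 and −0.70 in line sh2 for miR-3607-3p, with 95% counting intervals of −0.27 to 1.90 and −1.75 to 0.23. It was −0.15 in line sh1 and 0.31 in line sh2 for miR-1291, with intervals of −1.31 to 0.96 and −0.63 to 1.29. For miR-1260b it was 0.15 in line sh1 and −0.091 in line sh2, with intervals of −0.074 to 0.37 and −0.31 to 0.13. All 6 intervals include no change. Among the 709 tested rows 26.8% moved in opposite directions in the lines.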

How the results depend on the processing

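The number of names called higher in plus, 4, was 0 with no level filter and 0 with no mean-variance trend, and calls were also lost with 1 library left out. At an unadjusted p under 0.05 limma gave 4 of 11 names and 152 of 1345 rows higher with no level filter. With no trend it gave 4 of 10 names and 95 of 709 rows higher. No name was called lower under any alternative, nor at an unadjusted p. Calls over all rows, 202, numbered 103 after quantile normalization (48 higher, 55 lower), 5 with no level filter and 5 with no trend (5 higher and 0 lower in each), and 7 to 115 with 1 library left out (6 to 57 higher, 1 to 59 lower). At an unadjusted p, limma gave 159 lower with no level filter and 124 lower with no trend. With 1 library left out, an arm of 1 library is assumed to vary like the other.

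With no level filter and with no trend the log2 changes stayed as reported and the adjusted p became 0.140 and 0.104 for miR-1246 (0.75), 0.135 and 0.0702 for miR-1248 (1.01), 0.0799 and 0.0702 for miR-664-3p (0.61), and 0.0774 and 0.0702 for miR-4461 (1.07). Quantile normalization gave miR-1248 a log2 change of 1.04. miR-664-5p passed at 1.25 under median-ratio scaling and at 1.19 with the replicate block; the block changed no other of the 10 calls, with 103 higher and 113 lower over all rows. Leaving out 1 library at a time gave log2 changes of 0.51 to 0.99 for miR-1246, 0.80 to 1.23 for miR-1248, 0.92 to 1.22 for miR-4461, 0.56 to 0.66 for miR-664-3p and 0.47 to 1.91 for miR-664-5p. Signs turned for names that did not pass: with equal totals miR-1260b was at −0.030 and miR-3607-3p at −0.035, and with 1 library left out miR-1260b ranged from −0.051 to 0.11, miR-1291 from −0.22 to 0.38 and miR-3607-3p from −0.44 to 0.48. The cause was not tested. With miR-21-5p left out of the total, the share of the 11 names was 305 ppm in plus and 215 in minus. Equal totals, median-ratio scaling and pseudocounts of 0.5 and 5, added after the data were seen, moved none of the within-line changes past its counting interval. Of the colon markers, miR-141-3p passed at 0.24 under median-ratio scaling and turned to −0.053 under quantile normalization, and the calls of miR-192-5p, miR-194-5p and miR-215 were lost without either plus library, with no level filter and with no trend, that of miR-215 also under quantile normalization and without minus replicate 1. Depth limits the names with fewest reads, as the ratio of 1.08 for miR-1291 with its 95% counting interval of 0.659 to 1.77 shows.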
